A study of Mus musculus with 47 samples.

Results

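To examine whether the sperm transcriptome of the second generation after loss of SCML2 differed from that of control sperm, spermatozoa of KO-F2 males were compared with spermatozoa of Ctrl-F1 males, gene by gene and against both control libraries. The comparison rests on 4 of the 47 samples of the series, 2 libraries per group, chosen by their group labels alone. The fathers of the Ctrl-F1 males were wild type and sired them by intracytoplasmic sperm injection (ICSI): cryopreserved testicular sperm were injected into BDF1 oocytes. The background strain of Ctrl-F1 is labelled BDF2. KO-F2 males were grandsons of Scml2-KO males. Their fathers, the KO-F1 males, were produced by the same ICSI procedure from Scml2-KO sperm, and single F1 males were then housed with C57BL/6 females. The KO-F2 males were thus conceived by natural mating according to the study's methods, although their sample titles also name ICSI, and their background strain is labelled BDF3. Scml2 lies on the X chromosome, which a father does not pass to his sons, so that males of both groups carry an intact Scml2 allele in every cell. All males were 8 to 12 weeks old, none received a treatment, and the motile spermatozoa were collected from the cauda epididymis by swim-up.

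SCML2 is a Polycomb protein of the male germline. Polycomb complexes mark silent genes through histone modifications, and in late spermatogenesis SCML2 takes part in setting such marks at genes of somatic lineages. A mature sperm has exchanged most of its histones for protamines and no longer transcribes, so that its RNA is a residue of late spermatid transcripts, joined by RNA taken up in the epididymis and by RNA of any other cell left in the preparation. In such bulk libraries more cells of a type and more RNA per cell cannot be told apart.

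The Ctrl-F1 libraries held 2426900 and 1503733 counts and the KO-F2 libraries 11462105 and 8384266 counts, a ratio of 5.05 between the group means, and 13984 and 12518 genes against 17558 and 17432 genes had at least 1 count. Per library, 3 counts corresponded to 1.24 and 2.00 CPM (a share of the total counts, scaled alike in every library) in Ctrl-F1 and to 0.262 and 0.358 CPM in KO-F2, before the TMM scaling that all CPM values of single genes carry. The ribosomal RNA gene Rn45s took 20.6% and 28.7% of the Ctrl-F1 counts and 13.3% and 3.52% of the KO-F2 counts. On log2(CPM + 1), the Pearson correlation across 13149 genes was 0.752 between the Ctrl-F1 libraries, 0.950 between the KO-F2 libraries and between 0.761 and 0.810 across the groups, so that the Ctrl-F1 libraries resembled each other no more than they resembled KO-F2. Genes are not independent replicates in these correlations. A sequencing run is named in the KO-F2 labels, the same 1 for each library, but not in the Ctrl-F1 labels, so that run, depth, background strain and mode of conception cannot be told apart from generation. The series holds no sperm of control F2 males, so that descent from an Scml2-KO male cannot be told apart from any of these either. For Scml2 itself, Ctrl-F1 held 0 and 18 counts and KO-F2 held 6 and 9, too few to be tested.

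Across the 13149 genes tested, edgeR's quasi-likelihood test called 0 genes higher (0%) and 0 genes lower (0%) with both a 2-fold minimum and an adjusted p below 0.01. The smallest adjusted p was 0.0996, and 1960 genes (14.9%) had an unadjusted p under 0.05: 1193 with higher and 767 with lower values in KO-F2. DESeq2 at the same thresholds called 277 genes (2.14%), 149 of them higher (1.15% of the 12963 genes with an adjusted p) and 128 lower (0.987%). Leaving out 1 library at a time, edgeR called 103 genes without Ctrl-F1 replicate 1, 277 without Ctrl-F1 replicate 2, 75 without KO-F2 replicate 1 and 35 without KO-F2 replicate 2. Calls therefore depended on the tool and on single libraries, and the descriptions below rest on the values of each library.

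Each gene was next set against both controls. In 3802 of the 13149 genes (28.9%) both KO-F2 libraries lay above both Ctrl-F1 libraries, and in 2524 genes (19.2%) both lay below. In 1301 genes (9.89%) every KO-F2 library was at least 2 times every Ctrl-F1 library, and in 588 genes (4.47%) the reverse held. These genes are called separated below. Many of the higher ones were barely counted in the shallower controls: with every library under 3 counts of a gene set to 3 counts, 780 genes (5.93%) remained separated higher and 588 (4.47%) lower. Of the 1301, 755 had a mean of at most 5 CPM, and 239 of those remained with this floor. Leaving out 1 control, which then no longer had to be cleared, gave 4874 higher and 1893 lower genes without Ctrl-F1 replicate 1 and 3975 and 1794 without Ctrl-F1 replicate 2, whereas 1510 and 851 were separated without KO-F2 replicate 1 and 1268 and 911 without KO-F2 replicate 2. The counts of the gene lists moved with these totals. Among the 186 genes above a mean of 500 CPM, 17 were separated higher and 10 lower. The median log2 fold change (KO-F2 over Ctrl-F1) over all genes tested was 0.07. On the X chromosome 43 of 375 genes tested (11.5%) were separated higher and 29 (7.73%) lower, and on the autosomes the shares ranged from 7.79% to 12.2% higher and from 3% to 6.93% lower.

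**Figure D1:**
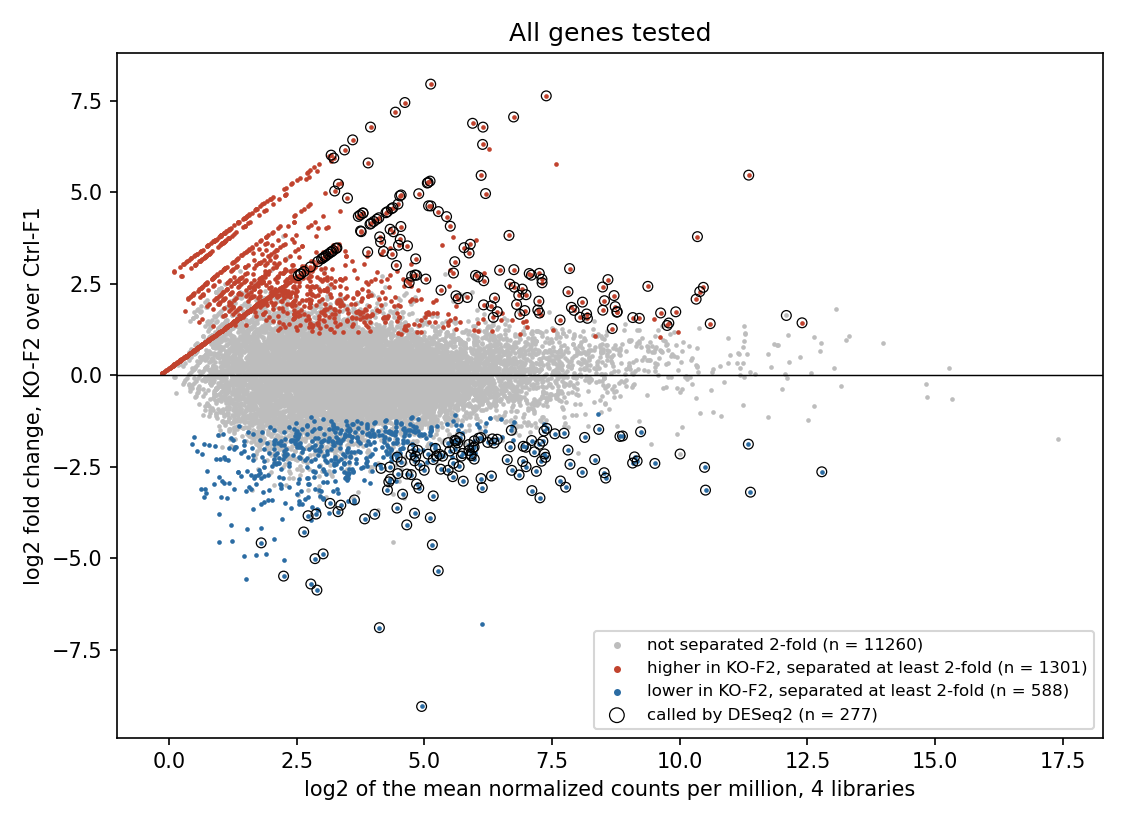
Each point is 1 gene tested, with the log2 of its mean normalized CPM over the 4 libraries against its log2 fold change of KO-F2 over Ctrl-F1. Colours mark the 1301 genes separated higher and the 588 separated lower, black circles the 277 called by DESeq2, and genes at 0 in both libraries of a group are drawn at their bound.

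The 12 higher genes with the smallest p-values included a pair of matrix genes, Fn1 and Thbs1. Fn1, which encodes fibronectin of the extracellular matrix and of plasma (chr1:71585473-71653280, GRCm38), was at 0.812 and 3.05 CPM in Ctrl-F1 and at 236 and 429 CPM in KO-F2, from 2 and 4 counts against 2848 and 3810. Its log2 fold change was 7.63 ± 0.68 (SE), with an adjusted p of 0.0996 in edgeR and 1.64e-19 in DESeq2. No Ctrl-F1 library came near either KO-F2 library. Thbs1, encoding the matrix glycoprotein thrombospondin (chr2:118111876-118127133), was counted 1 and 0 times in the controls and 629 and 771 times in KO-F2, a ratio of 252 with an exact 95% interval of 45.2 to 9976 that covers counting error only. A handful of control counts thus stood against a far larger number in each KO-F2 library for both genes.

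Of the 12, 5 encode surface or signalling proteins known from lymphocytes. Cd79a (chr7:24897497-24901858) and Cd79b (chr11:106311341-106314562), the signalling chains of the B cell receptor, were at 1.62 and 2.03 CPM in Ctrl-F1 replicate 1, at 0 in replicate 2, and in KO-F2 at 149 and 95.2 CPM and at 159 and 122 CPM. The log2 fold changes were 6.88 ± 0.76 and 6.77 ± 0.74, and the adjusted p was 0.0996 for each in edgeR and 4.81e-11 and 6.81e-13 in DESeq2. Ms4a1, which encodes the B cell antigen CD20 (chr19:11249679-11266149), had no count in Ctrl-F1 and 84.5 and 53.7 CPM in KO-F2, at least 39.4-fold higher against a floor of 3 counts per library. Cd37, a tetraspanin of leukocytes (chr7:45233632-45239340), was at 2.84 and 2.29 CPM in Ctrl-F1 and 68.6 and 61.7 CPM in KO-F2, 25.4-fold higher in the means. Ly6d, a surface antigen of early B cells and of squamous epithelium (chr15:74762056-74763567), had no count in Ctrl-F1 and 64.5 and 68.6 CPM in KO-F2, at least 38.0-fold higher. In all 5 genes the groups were far apart, and in KO-F2 the libraries lay within 2-fold of each other.

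The other 5 higher genes were of several kinds. Myc, a transcription factor of growing cells (chr15:61985341-61990361), was counted 1 and 0 times in the controls and 763 and 306 times in KO-F2, a ratio of 193 (95% interval 34.5 to 7619). Tpsb2, a tryptase of mast cells (chr17:25366308-25368096), was at 2.03 and 4.57 CPM in Ctrl-F1 and 185 and 84.4 CPM in KO-F2, 40.9-fold higher, and its reads could be split with the near-identical Tpsab1. Phospho1, a phosphatase of phosphocholine (chr11:95824500-95832140), was at 97.1 and 120 CPM in Ctrl-F1 and 654 and 673 CPM in KO-F2. It was 6.10-fold higher (DESeq2 adjusted p = 1.4e-10), and its span overlaps that of Abi3 by 2069 bases, so that reads of the 2 genes could be mixed. 1700015G11Rik, a protein-coding gene with no function known to the annotation used (chr7:52011680-52015716), was 7.45-fold higher, at 29.7 and 21.3 CPM against 187 and 194 CPM. The ribosomal protein gene Rpl37a was at 2.44 and 4.57 CPM against 81.0 and 66.7 CPM, and is uncertain because ribosomal protein genes have many near-identical copies.

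The 12 lower genes with the smallest p-values included Cdh1, which epithelia express. Gpnmb, a membrane glycoprotein (chr6:49036518-49058182), was at 314 and 400 CPM in Ctrl-F1 and at 50.3 and 46.4 CPM in KO-F2, 7.39-fold lower (log2 fold change -2.88 ± 0.32, DESeq2 adjusted p = 3.15e-12). Cdh1, which encodes E-cadherin of epithelial junctions (chr8:106603350-106670247), was at 85.3 and 78.5 CPM against 13.4 and 10.6 CPM, 6.82-fold lower. In both genes the KO-F2 libraries lay close together and well under both controls. Edn3, an endothelin peptide (chr2:174760619-174784042), was at 47.1 and 48.0 CPM against 2.66 and 2.93 CPM, 17.0-fold lower. Azgp1, a secreted zinc-binding glycoprotein (chr5:137981521-137990233), was counted 111 and 32 times in the controls and never in KO-F2 in spite of the greater depth, at least 118-fold lower. Azgp1 was 1 of only 2 genes tested that had no count in either KO-F2 library.

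Further lower genes were Tmem30b (9.83-fold lower), the adhesion receptor Gpr56 (7.44-fold), the carboxylesterase Ces1d (6.72-fold), Enpp5 (8.86-fold) and the glutamate transporter Slc1a1 (5.10-fold), together with 2 genes whose reads may be shared with copies. Gm20594, a predicted gene of 1 short span (chr6:79818031-79818364), was at 70.7 and 80.0 CPM in Ctrl-F1 and 1.99 and 1.69 CPM in KO-F2. Rps18, a protein of the small ribosomal subunit, was counted 89 and 114 times in the controls and 1 time in each KO-F2 library, a ratio of 0.00178 (95% interval 0.000214 to 0.00650). Both are uncertain, since counts of uniquely aligned reads depend on how such copies are annotated, and the annotation is not given in the sources used here.

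**Figure D2:**
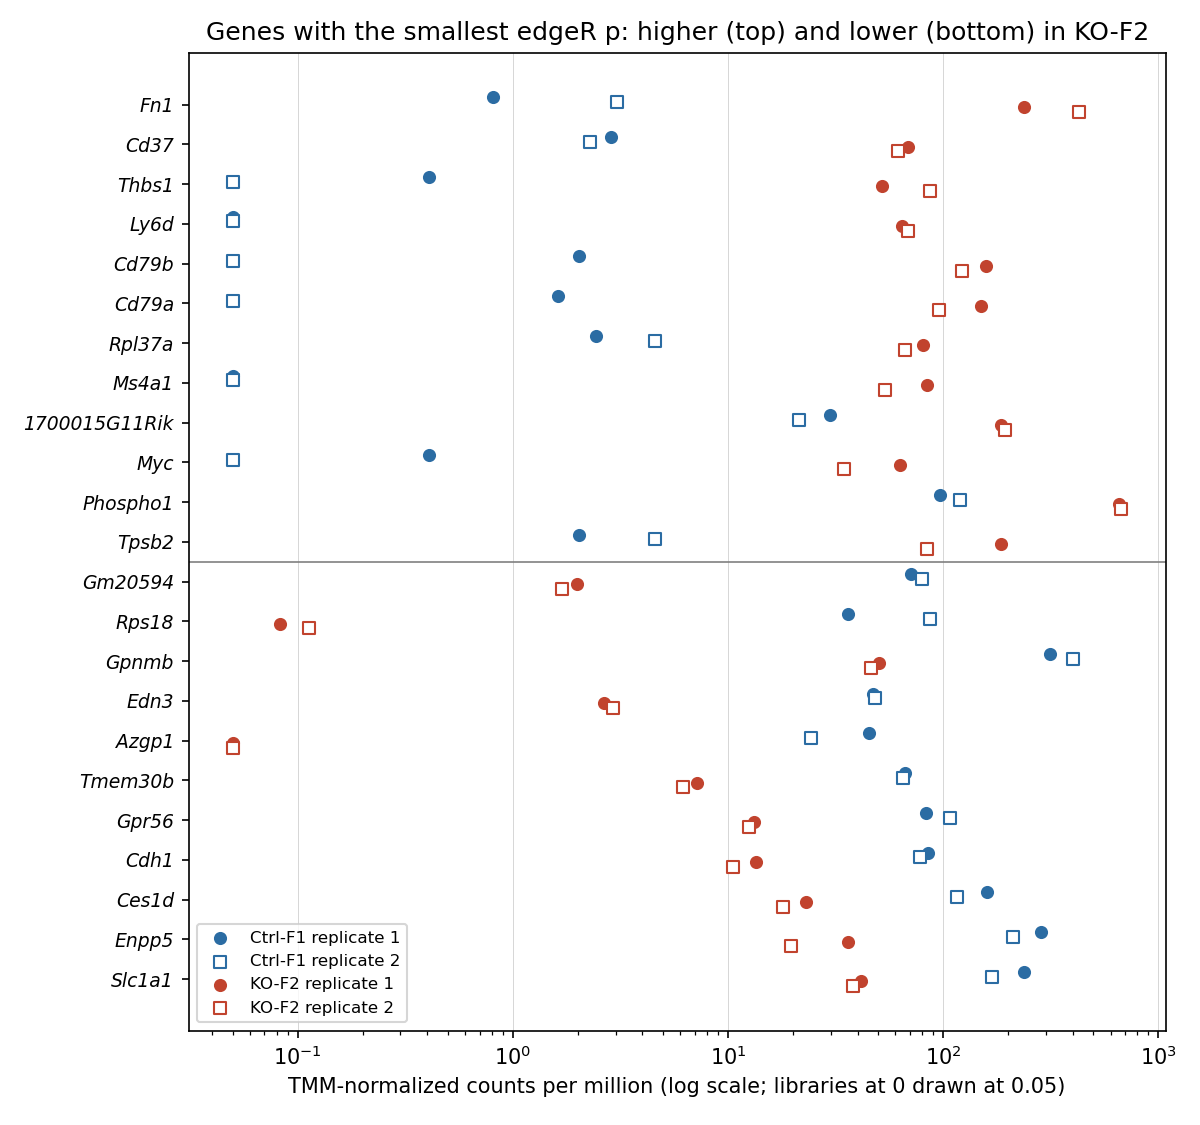
Normalized CPM (log axis) in each of the 2 Ctrl-F1 and 2 KO-F2 libraries for the higher and lower genes with the smallest p-values that the text names, with libraries at 0 drawn at 0.05 CPM. Fn1 lies at 0.812 and 3.05 CPM in Ctrl-F1 against 236 and 429 CPM in KO-F2, and Azgp1 is at 0 in both KO-F2 libraries.

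Gene lists for cell types and pathways were then described by counts, beside the 9.89% of all genes separated higher and the 4.47% separated lower. Of 41 leukocyte genes tested (50 are listed in the files), 20 were separated higher and 0 lower, and 19 remained higher with the floor of 3 counts. DESeq2 called 14 of them higher and 0 lower, against 1.15% and 0.987% of all genes, and the median log2 fold change was 2.08 (2.04 with genes absent from the controls at their bound), against 0.07 over all genes. Leaving out 1 library at a time, between 21 and 34 of 40 to 46 genes tested were separated higher and between 0 and 2 lower, with the lowest count without KO-F2 replicate 2 and the highest without Ctrl-F1 replicate 2. The higher ones were 52.5% to 73.9% of the list, against 10.3% to 32.7% of all genes. With counts thinned to the smallest library, 18 of 38 were separated higher and 0 lower. Earlier results of these data were known when the lists were chosen, so that their direction is no independent evidence.

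The leukocyte genes spanned myeloid and lymphoid cells. Lyz2, lysozyme of macrophages and granulocytes, was at 47.1 and 308 CPM in Ctrl-F1 and 1816 and 3035 CPM in KO-F2 (log2 fold change 3.78 ± 0.90, DESeq2 adjusted p = 3e-05). Cd14, the monocyte receptor for bacterial lipopolysaccharide, was at 8.53 and 19.05 CPM against 142 and 234 CPM. Cd74, the invariant chain of MHC class II, was at 137 and 280 CPM against 1219 and 1019 CPM (2.43 ± 0.44). All 3 were separated, although the Ctrl-F1 libraries themselves differed several-fold in Lyz2. Laptm5 (30.5 and 37.3 against 149 and 314 CPM) and the small GTPase Rac2 (16.7 and 22.1 against 88.2 and 75.4 CPM) were separated as well. Among the genes that define the class, Ptprc, the pan-leukocyte antigen CD45, was not separated, at 0 and 11.4 CPM against 24.0 and 19.7 CPM. C1qa, a complement subunit of tissue macrophages, was at 21.1 and 65.5 CPM against 69.2 and 149 CPM, with groups that barely cleared each other. H2-Aa, a chain of MHC class II chosen after its values were seen, was at 31.3 and 63.2 CPM against 313 and 225 CPM.

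Summed over the list, leukocyte genes took 0.758% and 0.380% of the Ctrl-F1 counts and 0.927% and 0.917% of the KO-F2 counts. Most of the Ctrl-F1 share was Cd52, a surface peptide of lymphocytes that epididymal epithelium also makes and sheds onto sperm, which was lower in KO-F2 (6624 and 2734 CPM against 2883 and 1331 CPM). Without Cd52, a choice made after the values were seen, the list took 0.0859% and 0.142% in Ctrl-F1 and 0.624% and 0.776% in KO-F2. In the sperm of KO-F1 males it took 0.0839% and 0.110%, next to the Ctrl-F1 values. The part of leukocyte RNA in the differences of other genes was not tested.

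Mast cells, the tissue cells that store tryptase and chymase, showed the same direction at lower counts. Of 11 mast cell genes tested, 8 were separated higher and 0 lower, 7 with the floor, and the median log2 fold change was 4.06 (2.69 with absent genes at their bound). Mcpt4, a chymase, was at 2.84 and 2.29 CPM in Ctrl-F1 and 60.6 and 27.2 CPM in KO-F2. Cma1, another chymase, was at 6.50 and 0.762 CPM against 115 and 50.6 CPM, and the carboxypeptidase Cpa3 at 4.06 and 0 CPM against 43.1 and 22.6 CPM. Every one of these was higher in both KO-F2 libraries, with KO-F2 replicate 1 above replicate 2. The receptor subunit Fcer1a had no count in Ctrl-F1 and was at least 3.35-fold higher. Of the 11, 9 had a log2 fold change above 0 and 2 below. Gata2, also on the list, went the other way, at 41.8 and 64.8 CPM against 41.1 and 41.4 CPM. It held 103 and 85 of the 162 and 126 counts of the list in Ctrl-F1. The whole list took 0.00668% and 0.00838% of the Ctrl-F1 counts and 0.0518% and 0.0281% of the KO-F2 counts. The 95% Wilson intervals of these shares, which cover counting error only, reached up to 0.00998% in Ctrl-F1 and down to 0.0269% in KO-F2. With at least 10 counts required in every library only 2 mast cell genes could be tested, 0 were separated and their median was -0.67.

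Erythrocyte genes set the KO-F2 libraries apart from each other. Beta-s, an adult beta globin, was at 129 and 102 CPM in Ctrl-F1 and at 797 and 9410 CPM in KO-F2, and Alas2, the first enzyme of heme synthesis in red cells, was at 1.62 and 1.52 CPM against 20.8 and 405 CPM. The 6 listed genes took 0.0138% and 0.00904% of the Ctrl-F1 counts and 0.0860% and 1.04% of the KO-F2 counts, while Hba-a1 had no count in any library. Of 3 listed genes tested, these 2 were separated higher and 0 lower, and the lowest log2 fold change was 0.177. In both separated genes KO-F2 replicate 2 exceeded replicate 1 more than 10-fold. Globin genes have near-identical copies and their single levels are uncertain.

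**Figure D3:**
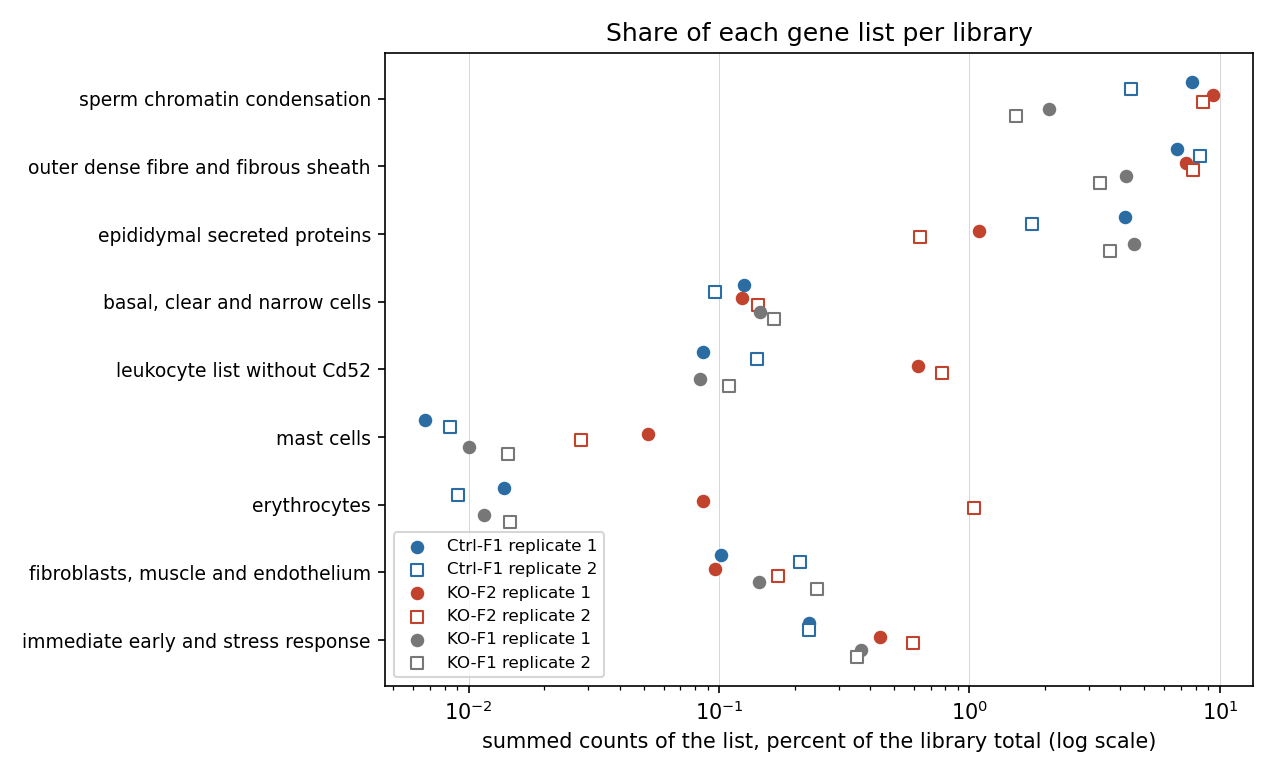
Share of all counts (percent, log axis) taken by each cell type list or gene class (leukocytes without Cd52) in each Ctrl-F1, KO-F2 and KO-F1 sperm library, 1 point per library, with the KO-F1 libraries as values only. Epididymal secreted proteins took 4.18% and 1.78% in Ctrl-F1 and 1.09% and 0.632% in KO-F2, and mast cell genes 0.00668% and 0.00838% against 0.0518% and 0.0281%.

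Immediate early and stress response genes differed in part, and the separated ones were higher in KO-F2. Immediate early genes are transcribed within minutes of growth signals, tissue dissociation or other stress, and their products are mostly transcription factors and feedback inhibitors. Of 54 tested, 19 were separated higher and 0 lower, 18 with the floor, DESeq2 called 10 higher and 0 lower (1.15% and 0.987% of all genes), and the median log2 fold change was 1.05. Of the 54, 42 had a log2 fold change above 0 and 12 below. Both KO-F2 libraries lay above both controls in 29, where 28.9% of all genes did, and below both in 3, where 19.2% did. The 3 were Srxn1 (123 and 212 against 82.6 and 79.4 CPM), Cyr61 (39.4 and 45.7 against 7.97 and 23.7 CPM) and Sgk1 (39.4 and 26.7 against 23.2 and 24.9 CPM), named after their values were seen. Between 19 and 30 were separated higher and between 0 and 3 lower when 1 library was left out, the highest without Ctrl-F1 replicate 2, and 17 of 48 after thinning. With 1 library left out the higher ones were 35.8% to 53.6% of the list, against 10.3% to 32.7% of all genes. The whole list took 0.228% and 0.229% of the Ctrl-F1 counts and 0.441% and 0.594% of the KO-F2 counts. In the sperm of KO-F1 males it took 0.369% and 0.357%, also above both Ctrl-F1 libraries.

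Among transcription factors of the list, Junb, a subunit of AP-1, was at 67.8 and 38.9 CPM in Ctrl-F1 and 377 and 434 CPM in KO-F2, 7.60-fold higher (log2 fold change 2.91 ± 0.38, adjusted p = 0.106 in edgeR and 3.12e-09 in DESeq2). Atf3 was at 22.7 and 19.8 CPM against 89.1 and 97.3 CPM, and Klf2 at 50.4 and 32.0 CPM against 169 and 209 CPM. In each the lower KO-F2 library was at least 3 times the higher control. Among feedback inhibitors, Nfkbia, which holds NF-kappaB in the cytoplasm, was at 33.3 and 28.2 CPM against 121 and 226 CPM, and Ppp1r15a, which brings a phosphatase to the initiation factor eIF2, at 4.47 and 2.29 CPM against 46.4 and 36.9 CPM, 12.3-fold higher. The span of Ppp1r15a overlaps that of Tulp2 by 730 bases, so that reads of the 2 genes could be mixed. The phosphatase Dusp1 (103 and 48.8 against 279 and 467 CPM), the mRNA decay factor Zfp36 (59.7 and 27.4 against 242 and 302 CPM), Fos (72.3 and 46.5 against 196 and 290 CPM) and the antiproliferative gene Btg2 (3.66 and 34.3 against 93.6 and 155 CPM) were separated too and were chosen after their values were seen. Jund, the AP-1 gene with the most counts in the list, was not separated, at 266 and 370 CPM against 332 and 395 CPM, nor was Herpud1 of the endoplasmic reticulum (230 and 152 against 367 and 375 CPM). The share of the leukocyte list without Cd52 was higher in the same libraries, and its part in the immediate early genes was not tested.

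Promoters were searched for this list and for the leukocyte list. All 19 separated members of this list were higher, as were all 20 separated leukocyte genes. RefSeq (GRCm38.p6) gave at least 1 start site for 44 of the 54 tested members, separated or not. The 250 bases before each start site were searched on both strands, and a gene counted when any of its windows matched. The cAMP response element TGACGTCA lay in 4 of the 44 (9.09%) and in 1.77% of 27025 genes with such a window. The kappaB motif lay in 7 of the 44 (15.9%, against 4.46% of all genes), the CArG box of serum response factor in 3 (6.82% against 1.62%) and the AP-1 motif TGANTCA in 3 (6.82% against 7.82%). The GC box GGGCGG lay in 34 (77.3% against 35.4%). A match is a run of letters and not a site of binding. The promoters of 5 members separated higher follow, 5' to 3' toward the start site, with a cAMP response element in capitals in Ppp1r15a, Dusp1 and Btg2, a kappaB motif in Nfkbia and a CArG box in Zfp36.
Ppp1r15a, chr7:45526269-45526518, minus strand: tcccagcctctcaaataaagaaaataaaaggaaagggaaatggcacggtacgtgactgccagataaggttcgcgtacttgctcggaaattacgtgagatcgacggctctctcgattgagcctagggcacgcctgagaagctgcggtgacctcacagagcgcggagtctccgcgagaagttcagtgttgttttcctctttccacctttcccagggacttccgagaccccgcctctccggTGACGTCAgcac
Dusp1, chr17:26508473-26508722, minus strand: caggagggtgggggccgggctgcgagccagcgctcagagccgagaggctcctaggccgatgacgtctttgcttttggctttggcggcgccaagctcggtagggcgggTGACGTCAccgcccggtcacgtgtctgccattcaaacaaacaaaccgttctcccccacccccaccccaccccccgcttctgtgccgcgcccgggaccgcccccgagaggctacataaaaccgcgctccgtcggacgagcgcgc
Btg2, chr1:134079156-134079405, minus strand: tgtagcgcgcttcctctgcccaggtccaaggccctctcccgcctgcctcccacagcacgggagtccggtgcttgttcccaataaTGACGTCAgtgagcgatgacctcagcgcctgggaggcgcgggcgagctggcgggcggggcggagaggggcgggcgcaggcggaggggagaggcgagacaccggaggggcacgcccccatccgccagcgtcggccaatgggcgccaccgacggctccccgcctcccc
Nfkbia, chr12:55492648-55492897, minus strand: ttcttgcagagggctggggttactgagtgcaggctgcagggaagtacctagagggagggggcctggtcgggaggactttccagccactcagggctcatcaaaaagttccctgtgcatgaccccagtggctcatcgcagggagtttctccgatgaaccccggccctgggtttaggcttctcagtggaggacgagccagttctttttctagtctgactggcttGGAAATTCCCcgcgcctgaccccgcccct
Zfp36, chr7:28379229-28379478, minus strand: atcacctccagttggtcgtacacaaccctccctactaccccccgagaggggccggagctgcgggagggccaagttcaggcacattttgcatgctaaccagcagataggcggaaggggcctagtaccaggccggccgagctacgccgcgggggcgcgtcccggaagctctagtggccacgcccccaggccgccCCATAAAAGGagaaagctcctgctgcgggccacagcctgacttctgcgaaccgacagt

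The elements in these windows begin 12, 143 and 166 bases before the start in Ppp1r15a, Dusp1 and Btg2, 29 bases before it in Nfkbia and 58 bases before it in Zfp36. Of the leukocyte list, 26 of the 41 tested members had a window, with a cAMP response element in 1 (3.85%), a kappaB motif in 3 (11.5%) and a GC box in 9 (34.6%).

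Genes of the epididymal duct went both ways. Its principal cells secrete proteins that coat passing sperm, basal cells line the duct, and clear cells acidify its fluid. Of 87 secreted protein genes tested, 10 were separated higher and 12 lower, and 3 and 12 with the floor, since most of the higher ones were near 0 in Ctrl-F1. The median log2 fold change was 0.08. Leaving out 1 library gave 25 higher and 19 lower of 97 without Ctrl-F1 replicate 1 (25.8% and 19.6%, against 32.7% and 12.7% of all genes). Without Ctrl-F1 replicate 2 they were 30 and 21 of 98 (30.6% and 21.4% against 26.5% and 11.9%). Without KO-F2 replicate 1 they were 10 and 18 of 78 (12.8% and 23.1% against 12.1% and 6.83%). Without KO-F2 replicate 2 they were 6 and 17 of 76 (7.89% and 22.4% against 10.3% and 7.41%). The members with the most counts were lower: Crisp1, a cysteine-rich protein that binds the sperm surface, was at 17998 and 6242 CPM in Ctrl-F1 and 2717 and 1189 CPM in KO-F2 (log2 fold change -2.63 ± 0.70, DESeq2 adjusted p = 0.000332). Serpina1f was at 6067 and 3566 CPM against 739 and 316 CPM, 9.12-fold lower, and Cuzd1 at 3329 and 1885 CPM against 415 and 179 CPM, 8.78-fold lower. Adam7, a membrane protein handed to sperm in the epididymis, was at 1518 and 939 CPM against 290 and 174 CPM (5.30-fold). All 4 were separated lower, and so were Ceacam10, Clu and Svs1.

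Other secreted members did not follow. Cst8, a cystatin, was at 60.5 and 65.5 CPM in Ctrl-F1 and 109 and 90.1 CPM in KO-F2, and Wfdc17, which macrophages also express, was at 1.22 and 9.14 CPM against 85.8 and 197 CPM. The lipocalin Lcn5 had no count in Ctrl-F1 and 0.664 and 2.36 CPM in KO-F2. The whole list took 4.18% and 1.78% of the Ctrl-F1 counts and 1.09% and 0.632% of the KO-F2 counts, and 2.36% and 1.23% against 0.807% and 0.506% without Crisp1. The groups did not overlap in either sum, whereas the KO-F1 libraries, at 4.53% and 3.65%, overlapped Ctrl-F1 in the first and, at 3.61% and 2.497%, lay above both Ctrl-F1 libraries without Crisp1.

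Of 20 genes of basal and clear cells tested, 4 were separated higher and 5 lower, with a median log2 fold change of -0.43. Without Ctrl-F1 replicate 1 the counts were 9 and 5 of 24 (37.5% and 20.8%, against 32.7% and 12.7% of all genes). Without Ctrl-F1 replicate 2 they were 9 and 10 of 25 (36% and 40% against 26.5% and 11.9%). Epcam, an epithelial adhesion molecule, was at 224 and 135 CPM in Ctrl-F1 and 39.3 and 20.1 CPM in KO-F2, and Foxi1, the transcription factor of clear cells, at 64.2 and 178 CPM against 10.6 and 23.5 CPM. The proton pump subunit Atp6v0d2 was at 43.9 and 32.8 CPM against 1.99 and 8.44 CPM. Carbonic anhydrase Car2, by contrast, was at 402 and 296 CPM against 803 and 841 CPM, just under a 2-fold gap. The members separated higher were Ly6d, described above, the integrin subunit Itga6 (0.406 and 0 against 9.55 and 25.3 CPM), the desmosome gene Dsp (0 in Ctrl-F1, 2.57 and 4.16 CPM in KO-F2) and the mucin Muc1 (2.44 and 3.05 against 7.97 and 8.78 CPM), of which Dsp was not separated with the floor. The basal cell markers Krt5, Krt14 and Trp63 were close to absent: Krt5 was at 12.6 and 0 CPM against 1.49 and 0 CPM, Krt14 at 0 in Ctrl-F1 and at 2.66 and 1.01 CPM in KO-F2, and Trp63 at or under 2.29 CPM in every library. The list took between 0.0962% and 0.143% of the counts in all 4 libraries.

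Of 24 genes of fibroblasts, smooth muscle and vessels tested, 2 were separated higher and 4 lower, 5 had a log2 fold change above 0 and 19 below, and the median was -1.17. Without Ctrl-F1 replicate 1 the counts were 9 higher and 14 lower of 30 (30% and 46.7%, against 32.7% and 12.7% of all genes). Without Ctrl-F1 replicate 2 they were 8 and 6 of 31 (25.8% and 19.4% against 26.5% and 11.9%). Without KO-F2 replicate 1 they were 2 and 4 of 26 (7.69% and 15.4% against 12.1% and 6.83%). Without KO-F2 replicate 2 they were 2 and 13 of 26 (7.69% and 50% against 10.3% and 7.41%). The list took 0.102% and 0.211% of the Ctrl-F1 counts and 0.0966% and 0.172% of the KO-F2 counts, with overlapping groups. Dcn and Gsn, among the 3 members with the highest mean CPM, overlapped as well. Dcn was at 136 and 411 CPM in Ctrl-F1 and 105 and 296 CPM in KO-F2, and Gsn at 151 and 464 CPM against 71.2 and 164 CPM. Bgn, a matrix proteoglycan, was at 65.8 and 143 CPM in Ctrl-F1 and 17.5 and 25.1 CPM in KO-F2 (DESeq2 adjusted p = 0.00191), and the collagen gene Col1a1 at 32.5 and 79.2 CPM against 7.14 and 14.2 CPM. Fn1, which is also on this list, differed in the opposite direction from these matrix genes. Actg2, an actin of smooth muscle, was higher too, at 87.3 and 55.6 CPM against 255 and 211 CPM, whereas Acta2 was at 9.34 and 29.0 CPM against 3.57 and 6.64 CPM. Of 8 Sertoli and Leydig cell genes tested, 4 were separated higher and 1 lower, 1 and 1 with the floor, and without KO-F2 replicate 2 only 2 could be tested. The lower one was Clu, which epididymal epithelium also makes, at 993 and 274 CPM against 119.1 and 81.8 CPM. The higher ones were scarce. Cyp11a1, of steroid synthesis, was at 0 in Ctrl-F1 and at 8.88 and 5.63 CPM in KO-F2, at least 4.14-fold higher. Sox9 (0 against 2.49 and 14.7 CPM), Amhr2 (0 against 3.24 and 2.36 CPM) and Defb19 (1.22 and 0 against 2.49 and 3.94 CPM) were not separated with the floor. Of the defining markers, Insl3 had no count and Amh had 2 counts in 1 KO-F2 library. The accessory gland gene Pbsn had no count in any library, and Serpine2, a protease inhibitor of seminal vesicle, was at 745 and 328 CPM against 109 and 109 CPM.

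Transcripts that define sperm were abundant in all 4 libraries and mostly not separated. Prm1, a protamine, was at 14424 and 8331 CPM in Ctrl-F1 and 20926 and 20898 CPM in KO-F2 (log2 fold change 0.88 ± 0.49), and the transition protein gene Tnp1 at 1848 and 1218 CPM against 3714 and 3105 CPM. The outer dense fibre gene Odf1 was at 25309 and 45554 CPM against 24741 and 22515 CPM, and the fibrous sheath anchor Akap4 at 1428 and 931 CPM against 1632 and 1187 CPM. Of 12 genes of sperm chromatin condensation 1 was separated higher and 0 lower, of 21 genes of outer dense fibres and fibrous sheath 0, of 19 germline glycolysis genes 0, of 57 acrosome genes 1 in each direction, and of 50 axoneme genes 0 higher and 2 lower. The axonemal armadillo gene Armc4 (16.7 and 20.6 against 5.15 and 7.43 CPM) and the acrosomal protease gene Adam1b (25.6 and 32.8 against 12.3 and 7.99 CPM) were among the lower ones. Summed, sperm chromatin genes took 7.74% and 4.40% of the Ctrl-F1 counts and 9.40% and 8.59% of the KO-F2 counts, and the fibre genes 6.72% and 8.37% against 7.31% and 7.80%.

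Kinases of spermatids and genes of the sperm ion channels differed in part. Tssk6, a kinase needed for histone removal in spermatids (chr8:69902184-69903518), was at 2550 and 3269 CPM in Ctrl-F1 and 6702 and 9007 CPM in KO-F2, 2.70-fold higher (log2 fold change 1.43 ± 0.40, adjusted p = 0.218 in edgeR and 0.00468 in DESeq2). Its span overlaps Ndufa13 by 375 bases, so that reads of the 2 genes could be mixed. Csnk1g2, a casein kinase, was at 1586 and 2656 CPM against 5125 and 8029 CPM, whereas Tssk2 was at 864 and 603 CPM against 1062 and 1133 CPM. The 24 kinase genes took 0.692% and 0.679% of the Ctrl-F1 counts and 1.56% and 2.12% of the KO-F2 counts, with no overlap between groups. Their summed normalized CPM was 6827 and 7777 in Ctrl-F1 and 14875 and 20030 in KO-F2, where Tssk6 and Csnk1g2 made up most of it. A sum without these 2 genes was not computed. Of the 21 kinase genes tested, 2 were separated higher (9.52%, against 9.89% of all genes) and 0 lower. Of 22 genes of CatSper and other sperm ion channels, 0 were separated higher and 2 lower, and 17 of the 22 had a log2 fold change below 0 (median -0.67, but 0.30 without Ctrl-F1 replicate 1). Slc26a3, an anion exchanger, was at 34.9 and 25.9 CPM against 2.66 and 1.69 CPM, and Lrrc52, an accessory subunit of a sperm potassium channel, at 8.94 and 29.7 CPM against 3.49 and 2.48 CPM. Atp1a4, a sodium pump subunit of sperm and the member with the most counts, was at 148 and 168 CPM against 246 and 123 CPM, with overlapping groups.

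Of 40 meiotic and piRNA pathway genes tested, 7 were separated higher (17.5%, against 9.89% of all genes) and 2 lower (5% against 4.47%). With the floor, 2 were higher (5% against 5.93%) and 2 lower (5% against 4.47%), so that the list then lay close to all genes. The members below are therefore single genes and not a shift of the class. Syce2, of the synaptonemal complex, was at 513 and 515 CPM in Ctrl-F1 and 1061 and 1063 CPM in KO-F2, and its span overlaps that of Gcdh. Gtsf1, a cofactor of piRNA silencing, was at 5.69 and 2.29 CPM against 32.8 and 26.4 CPM, and the meiotic cohesin gene Smc1b was lower, at 34.9 and 27.4 CPM against 9.63 and 10.9 CPM. The span of Smc1b overlaps that of Fam118a by 52892 bases, so that reads of the 2 genes could be mixed.

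Genes of oxidative phosphorylation differed mostly by less than 2-fold. Of 73 tested, 60 had a log2 fold change above 0 and 13 below (median 0.57), against 6971 and 6178 of all 13149 genes. In 47 both KO-F2 libraries lay above both controls, where 28.9% of all genes did, and in 5 below, where 19.2% did (Atp5g1, Cox7a2l, Cox7c, Ndufb3 and Ndufc2). The separated genes were 8 higher (11%, against 9.89% of all genes) and 1 lower. Without Ctrl-F1 replicate 1 they were 14 higher (19.2% against 32.7%) and without Ctrl-F1 replicate 2 they were 13 (17.8% against 26.5%). Ndufa13, a subunit of complex I (chr8:69894163-69902558), was at 403 and 513 CPM in Ctrl-F1 and 1836 and 2622 CPM in KO-F2, 4.87-fold higher (log2 fold change 2.28 ± 0.37, DESeq2 adjusted p = 4.76e-07), with the overlap of Tssk6 named above. Ndufb8, also of complex I, was at 43.5 and 38.1 CPM against 132 and 112 CPM, and Uqcrc1 of complex III at 45.9 and 50.3 CPM against 118 and 104 CPM. Atp5g1, a subunit of the ATP synthase ring, was the 1 lower member, at 40.6 and 41.9 CPM against 16.5 and 13.7 CPM, and the often counted Cox4i1 was at 288 and 242 CPM against 338 and 273 CPM.

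Cytosolic ribosomal protein genes went both ways, with 10 of 76 separated higher, 13 lower and a median of -0.22, which was 0.18 without Ctrl-F1 replicate 1. Rplp1 was at 362 and 537 CPM in Ctrl-F1 and 2219 and 2523 CPM in KO-F2, and Rpl36 at 52.0 and 60.2 CPM against 204 and 151 CPM. Among the lower ones, Rpl29 was at 80.0 and 115 CPM against 27.5 and 28.8 CPM. Processed copies elsewhere in the genome make each single value of these genes uncertain. Among 80 chaperone genes 4 were separated higher and 3 lower. Hspa5, the main chaperone of the endoplasmic reticulum, was at 1101 and 725 CPM against 173 and 217 CPM, 4.68-fold lower (log2 fold change -2.23 ± 0.36, DESeq2 adjusted p = 5.51e-07). The cytosolic chaperone Hspa8 (53.2 and 32.0 against 12.5 and 10.9 CPM) and its partner Dnajb6 (128 and 83.0 against 37.5 and 27.5 CPM) were the other lower members.

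Other housekeeping lists held few separated genes. Of 38 proteasome genes, only Psma6 was separated higher (209 and 208 against 461 and 418 CPM; 2.63% of the list against 9.89% of all genes) and 0 lower, of 65 translation factors 2 (3.08%) were higher and 3 lower, among them Eif1 (446 and 458 against 214 and 223 CPM), and of 29 polyubiquitin, actin and tubulin genes of spermatids 1 was higher and 1 lower. Of 47 genes of glutathione and redox metabolism 5 were separated higher and 0 lower. Gstt4, a glutathione transferase, was at 124 and 79.2 CPM in Ctrl-F1 and 379 and 359 CPM in KO-F2 (DESeq2 adjusted p = 0.000228), Gstm5 at 3304 and 5014 CPM against 7374 and 9679 CPM, and Gpx3, a secreted peroxidase, lay below its controls in both KO-F2 libraries at 8111 and 8176 CPM against 5349 and 1625 CPM.

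Polycomb genes and their targets were described last, since the grandsires lacked a Polycomb protein. Of 55 genes of Polycomb and of H3K4 or H3K27 methylation tested, 2 were separated higher and 0 lower, with a median log2 fold change of 0.14. The Polycomb subunits Phc1 and Phc2 were at 78.4 and 104 CPM in Ctrl-F1 against 190 and 176 CPM in KO-F2 and at 71.9 and 78.5 CPM against 112 and 199 CPM. Among the separated genes, Rbbp5 of the H3K4 methylases had 0 and 3 counts against 69 and 43, a ratio of 6.73 (95% interval 2.24 to 33.1). It was not called by edgeR or DESeq2.

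Of 164 developmental transcription factor genes in the files, genes of the kind Polycomb silences outside their lineage, only 48 passed the filter on low counts, and 5 were separated higher and 6 lower (2 and 6 with the floor). Their median was -0.55, with 13 above 0 and 35 below, against 6971 and 6178 of all 13149 genes. Without Ctrl-F1 replicate 1 the separated genes were 19 higher and 25 lower of 68 (27.9% and 36.8%, against 32.7% and 12.7% of all genes). Without Ctrl-F1 replicate 2 they were 20 and 13 of 65 (30.8% and 20% against 26.5% and 11.9%). Without KO-F2 replicate 1 they were 5 and 8 of 49 (10.2% and 16.3% against 12.1% and 6.83%). Without KO-F2 replicate 2 they were 4 and 6 of 49 (8.16% and 12.2% against 10.3% and 7.41%). Hoxa10, of the posterior body axis and the reproductive tract, was at 22.7 and 16.8 CPM in Ctrl-F1 and 2.57 and 4.16 CPM in KO-F2, Tbx2 at 71.5 and 77.0 CPM against 28.9 and 23.7 CPM, and Sox4 at 42.2 and 51.8 CPM against 11.9 and 18.5 CPM. Pax1, of the sclerotome, had 2 and 0 counts against 140 and 86, a ratio of 20.4 (95% interval 5.57 to 169), and Six2, of kidney progenitors, was at 0.812 and 0 CPM against 7.06 and 9.79 CPM. Hoxa4, the member with the most counts, was at 300 and 377 CPM against 174 and 331 CPM, with overlapping groups. The 116 members that did not pass the filter were too low to be compared.

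Of 30 imprinted genes tested, 0 were separated higher and 3 lower, and 10 had a log2 fold change above 0 and 20 below (median -0.49, but 0.015 without Ctrl-F1 replicate 1). Igf2, a paternally expressed growth factor, was at 10.6 and 9.90 CPM in Ctrl-F1 and 0.581 and 1.58 CPM in KO-F2, and the amino acid transporter Slc38a4 at 47.5 and 62.5 CPM against 15.7 and 8.89 CPM (DESeq2 adjusted p = 0.00616). Cdkn1c, a maternally expressed inhibitor of the cell cycle, was at 91.8 and 136 CPM against 150 and 193 CPM. Of 9 inhibin and activin genes 1 was separated, namely Inhbb, the beta B subunit shared by inhibin B and activin B, counted 29 and 23 times in the controls and 4 and 1 times in KO-F2 (log2 fold change -5.86 ± 0.98, DESeq2 adjusted p = 3.73e-05). Of 27 interferon response genes 4 were separated higher and 0 lower, with a median of 0.33 that was -0.31 without KO-F2 replicate 2. Irf8, a factor of myeloid and B cells, was at 5.69 and 7.62 CPM against 17.5 and 38.0 CPM, and Irf1 at 1.22 and 8.38 CPM against 18.4 and 23.9 CPM. B2m, the light chain of MHC class I and the one with the most counts, was at 2039 and 944 CPM against 602 and 379 CPM.

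**Figure D4:**
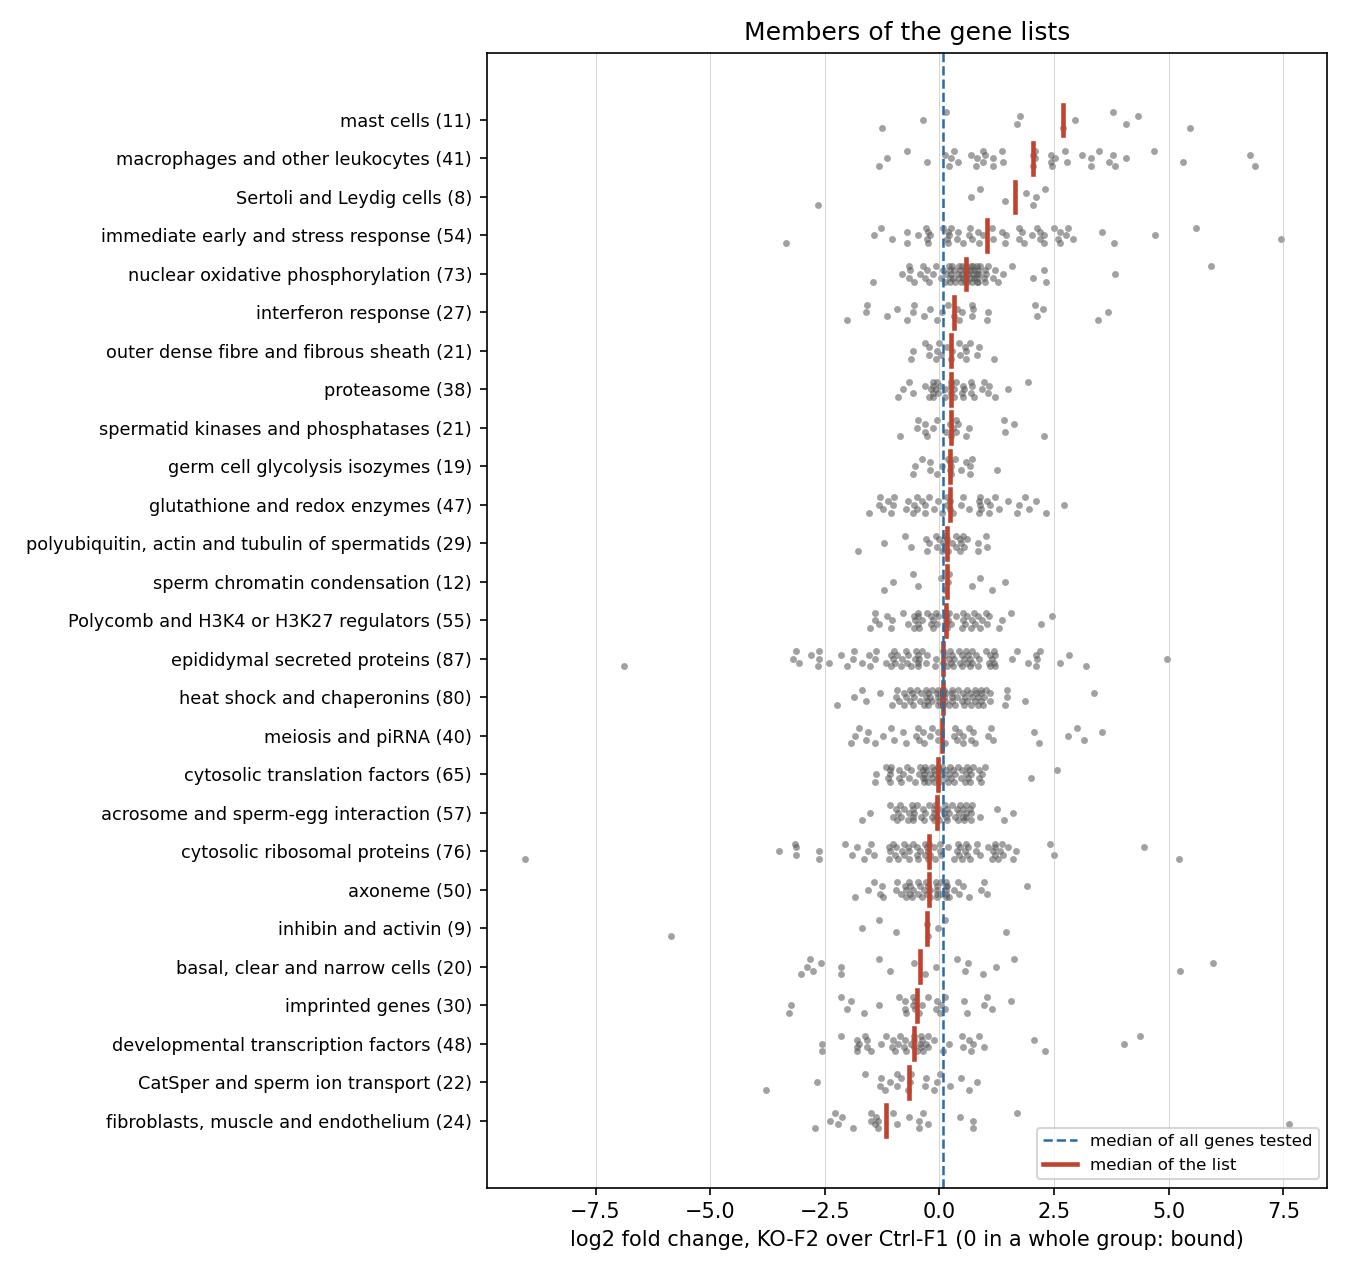
Log2 fold change of KO-F2 over Ctrl-F1 for each tested member of the gene lists with at least 5 tested members, 1 point per gene and 1 row per list with the number tested, with genes at 0 in a whole group at their bound. Red bars mark the median of each list and the dashed line that of all genes (0.07): of the lists drawn, mast cells (2.69) and leukocytes (2.04) have the highest medians and fibroblasts, muscle and endothelium (-1.17) the lowest.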

How the data were processed

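The authors deposited 1 file of raw counts by gene symbol for each library. Used here were those files for 2 Ctrl-F1 and 2 KO-F2 sperm libraries, with 2 KO-F1 sperm libraries used as values only. According to the study's methods, cDNA of swim-up sperm was made with a kit for small inputs, amplified by PCR and tagmented, and single-end reads were aligned to GRCm38 with HISAT2 2.1.0 and uniquely aligned reads counted with featureCounts; the annotation and strand setting are not given in the sources used here. Because of the PCR, intervals and detection limits cover counting error only. The study describes 2 independent biological replicates per group, and p-values measure the spread between these samples alone. Each file lists 23420 lines, of which 4, of 2 symbols listed more than once, were left out, leaving 23416 genes.

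Groups were compared with edgeR 4.0.16 in R 4.3.3 (TMM, filterByExpr with a minimum count of 10 and a minimum total of 15, quasi-likelihood F test, Benjamini-Hochberg adjustment over 13149 genes), called with a 2-fold minimum and an adjusted p below 0.01. The SE of a log2 fold change was derived from the test, as its size divided by the square root of the quasi-likelihood F statistic. Within Ctrl-F1 and KO-F2, counts of the replicates differed by a chi-square of 22.1 and 75.5 per degree of freedom, far beyond sampling noise. A gene was separated when every library of one group was at least 2 times every library of the other in normalized CPM. A group at 0 was set to a floor of 3 counts per library for a lower bound, and ratios with at most 3 counts in a group carry exact 95% intervals. The 30 gene lists were described by counts and medians. Positions and promoters are those of RefSeq GRCm38.p6. Spans of further named genes, among them Hspa5, B2m, Alas2 and Adam1b, also overlap that of another protein-coding gene, and their reads could be mixed as well.

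The members and gene lists were chosen with earlier results of these data known. The genes named are Scml2, the 12 higher and 12 lower genes with the smallest p among those at least 2-fold different and not overlapping, at most 6 separated genes per list and direction, the 3 tested genes per list with the highest mean CPM, and defining markers of cell types; any other was chosen after its values were seen. Alternatives were DESeq2 1.42.0, its size factors in edgeR, other filters and thresholds, thinning to the smallest library, all 6 sperm libraries in 1 model, Rn45s and Lars2 left out, a replicate block, a gap of 4-fold and leaving out each library. The floor for the separated genes, their counts with 1 library left out, and the shares without Cd52 and Crisp1 were added after seeing the data. A few genes that this rule names are not reported here. The scripts were tested on simulated data. Libraries of liver, embryos and ChIP-seq were not used here.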

Additional observations from a re-analysis of the deposited data

How the results depend on the processing

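The number of genes called depended on the tool and the filter. DESeq2 called 277 genes (149 higher, 128 lower), edgeR without a filter 39 (31 and 8), with at least 10 counts in every library 1 (0 and 1) and with all 6 sperm libraries in 1 model 2 (1 and 1). DESeq2's size factors, thinning, leaving out Rn45s and Lars2, an adjusted p under 0.05 and no fold threshold each left 0 calls. With 1 library left out the calls ranged from 35 to 277 (29 to 149 higher, 6 to 128 lower), where a lone library is assumed to vary like the other group. DESeq2 and edgeR without Ctrl-F1 replicate 2 both called 277 genes, of which 138 were shared. With the replicate number as a block edgeR called 362 genes (215 and 147), 248 of them among the DESeq2 calls. Same-numbered libraries come from different animals, and their deviations from the group means correlated at 0.156 over only 2 pairs, so that the pairing has no basis in the design.

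Of separated genes, 196 were higher and 355 lower once each library had to hold 10 counts, 3212 were higher without a filter and 576 after thinning, and 674 were higher and 121 lower at a gap of 4-fold. With the floor of 3 counts, 780 were higher. With 1 library left out the range was 1268 to 4874 higher and 588 lower genes became 851 to 1893. For 143 of the tested genes named in the text, 1656 of 1657 fold changes under the alternatives kept their direction, and 336 of them passed the threshold of a call. The exception was Atp1a4, whose log2 fold change ranged from -0.33 to 0.66 with 1 library left out and was below 0 without KO-F2 replicate 1. The median of all genes tested, 0.07, was 0.22 with the block and 0.31 and 0.17 without Ctrl-F1 replicate 1 and 2. For each alternative that moved these counts beyond its own construction, the cause was not tested. The Ctrl-F1 depth limits all genes under about 3 counts there.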

Other observations

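Several genes outside the lists, all chosen after their values were seen, differed as widely as those named above. Itgb7, an integrin of gut-homing lymphocytes, had no count in Ctrl-F1 and was at 44.6 and 38.9 CPM in KO-F2, at least 23.8-fold higher. Cd5l, secreted by tissue macrophages, was at 35.3 and 99.2 CPM in KO-F2 and at 0 in Ctrl-F1, at least 38.4-fold higher. Gpr183, Ets1 and Icam2, genes of lymphocytes and vessels, also had no count in either control and were at least 19.2-fold, 17.7-fold and 19.7-fold higher. Of all genes tested, 358 had no count in both Ctrl-F1 libraries.

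Some genes with counts in all 4 libraries stood apart from their controls as well. Spata19, a mitochondrial protein of sperm, was at 43.5 and 49.5 CPM in Ctrl-F1 and 184 and 170 CPM in KO-F2. Abi3, which overlaps Phospho1, was at 127 and 178 CPM against 669 and 705 CPM, next to the values of Phospho1 itself. Klk1b8 was at 30.5 and 38.9 CPM against 196 and 169 CPM and belongs to a family of near-identical kallikrein genes. Spint1, an inhibitor of epithelial proteases, was at 90.2 and 39.6 CPM against 3.24 and 5.63 CPM, and Cldn14, a tight junction protein, at 62.6 and 43.4 CPM against 7.80 and 4.73 CPM. Avpr1a, a vasopressin receptor, was counted 25 and 22 times in the controls and 3 and 2 times in KO-F2.

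Counts in KO-F1 sperm, which entered no comparison, were 15 and 10 for Fn1, 0 and 0 for Cd79a and Ms4a1, 0 and 22 for Thbs1, 0 and 9 for Myc, 39 and 55 for Azgp1 and 297 and 147 for Rps18.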
